A study of Mus musculus with 4 samples.

Results

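Transcripts of 10 complement genes were measured in single microglia and macrophages from the brains of mice fed cuprizone (CPZ). The genes were taken by their symbols in the counted annotation, and 10 of the 32285 counted genes matched: *C1qa*, *C1qb*, *C1qc*, *C2*, *C4b*, *C3*, *Cfb*, *Cfp*, *C3ar1* and *C5ar1*. Their levels were compared between 2 PRMT1FL mice and 2 PRMT1Cx3cr1-KO mice, 1 library per mouse, all of the C57BL/6 background. Both genotypes carried the floxed *Prmt1* allele, received tamoxifen and ate a diet with 0.2% cuprizone for 5 wk, so no library stands for an untreated brain. In PRMT1Cx3cr1-KO mice the Cre recombinase was driven from the *Cx3cr1* locus, which other macrophages with *Cx3cr1* also use. The labels put the mice at 5 to 6 wk of age at the start of the diet, whereas the study's methods give that age for the tamoxifen, with the diet begun later. Cells had been sorted as CD45+ CD11b+ before droplet sequencing of transcript 3′ ends. *C2* was listed because it was lower and *Cfp* because it was higher in PRMT1Cx3cr1-KO cells, so their values are described without a test.

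Complement is a cascade of plasma and tissue proteins that tags cells and debris for removal. In the classical pathway C1q, built of the chains from *C1qa*, *C1qb* and *C1qc*, binds a surface and leads to the cleavage of C4 and C2, whose fragments form an enzyme that cleaves C3. The alternative pathway uses factor B (*Cfb*) for the same step, and properdin (*Cfp*) stabilizes its enzyme. The fragments C3a and C5a signal through the receptors C3aR (*C3ar1*) and C5aR1 (*C5ar1*). In the brain microglia are the main source of C1q, and tagging by C1q and C3 is known from the removal of synapses and myelin debris.

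The C1q genes lie side by side on chromosome 4 of GRCm38 within 18675 bases, and all 10 genes are transcribed from the minus strand. *C1qb* spans chr4:136880129-136886187, *C1qc* chr4:136889804-136893065 and *C1qa* chr4:136895917-136898803. *C4b* (chr17:34728380-34743882), *Cfb* (chr17:34856374-34862518) and *C2* (chr17:34862604-34898265) sit in the major histocompatibility complex, and only 85 bases separate *Cfb* from *C2*. *C3* lies at chr17:57203970-57228136, *C3ar1* at chr6:122847138-122856161, *C5ar1* at chr7:16246743-16259540 and *Cfp* at chrX:20925454-20931555. Of the stretches of 91 bases in the last 500 bases of the *C4b* transcript, 19.8% also occur in its paralog *C4a*, so counts of *C4b* are less certain than those of members that share none. *C4a* itself had 34 UMIs in the microglia of the 4 mice. *Cfb* shares 90.7% of such stretches with *Gm20547*, which was not among the counted genes, so reads of *Gm20547* could not be told from those of *Cfb*. The other 8 members share none.

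Promoter windows from 250 bases before to 50 bases after the start site (RefSeq, GRCm38.p6) were found for 6 of the 10 genes. The windows of *C1qb* and *C1qc*, which were measured at high level throughout, and those of *Cfp* and *C5ar1*, which were higher in PRMT1Cx3cr1-KO microglia, are shown 5′ to 3′ on the minus strand. Capitals mark matches, on either strand, to the letters searched for an interferon element (ISRE core GAAANNGAA), a STAT element (GAS TTCNNNGAA), ETS factors (GAGGAA), NF-kB (GGGANTTTC) and C/EBP (TTGCNNAA).
C1qb (chr4:136886151-136886450): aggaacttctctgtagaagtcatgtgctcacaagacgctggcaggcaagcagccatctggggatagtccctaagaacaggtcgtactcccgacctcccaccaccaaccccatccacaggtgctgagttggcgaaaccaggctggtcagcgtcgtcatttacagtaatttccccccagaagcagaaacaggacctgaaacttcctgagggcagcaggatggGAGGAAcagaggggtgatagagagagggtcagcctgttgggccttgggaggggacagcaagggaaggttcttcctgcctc
C1qc (chr4:136892865-136893164): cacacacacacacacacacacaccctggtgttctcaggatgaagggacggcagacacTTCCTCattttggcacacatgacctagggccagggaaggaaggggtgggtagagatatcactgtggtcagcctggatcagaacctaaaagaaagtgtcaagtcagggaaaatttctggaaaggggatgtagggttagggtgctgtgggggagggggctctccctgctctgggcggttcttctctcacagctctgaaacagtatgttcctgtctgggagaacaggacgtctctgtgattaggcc
Cfp (chrX:20931506-20931805): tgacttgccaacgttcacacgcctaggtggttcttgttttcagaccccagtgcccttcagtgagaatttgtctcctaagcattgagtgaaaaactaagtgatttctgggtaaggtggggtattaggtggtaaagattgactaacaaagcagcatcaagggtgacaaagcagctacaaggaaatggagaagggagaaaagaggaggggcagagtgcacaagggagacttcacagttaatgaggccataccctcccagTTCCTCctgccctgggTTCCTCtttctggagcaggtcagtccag
C5ar1 (chr7:16259289-16259588): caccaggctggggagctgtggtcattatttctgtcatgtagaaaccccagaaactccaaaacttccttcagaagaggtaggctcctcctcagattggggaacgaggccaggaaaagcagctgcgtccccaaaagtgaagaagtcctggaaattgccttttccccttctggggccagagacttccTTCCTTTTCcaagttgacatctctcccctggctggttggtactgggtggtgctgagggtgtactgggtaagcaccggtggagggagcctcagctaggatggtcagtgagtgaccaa
The ETS letters were found once in *C1qb*, once in *C1qc* and at 2 places in *Cfp*, and 28.3% of the 27025 promoter windows held them. The ISRE core letters were found in *C5ar1*, and 8.57% of all windows held them. The letters of C/EBP, held by 10.8% of all windows, were found in *C3* (chr17:57228087-57228386). The GAS letters (8.47% of all windows) and the NF-kB letters (1.15%) were not found in any of the 6 windows, and *C3ar1* (chr6:122856108-122856407) held none of the 5.

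The libraries held 8284 to 11554 barcodes and 76943248 to 99559644 UMIs, and 8170 to 11427 cells per mouse were kept. Each pair of libraries shared 31 to 46 barcodes. Cells were clustered without the 10 members, 49 further complement genes or 1534 genes set aside by genotype over all kept cells. These 1534 had an edgeR adjusted p under 0.05 or a log2 difference over 1 in either direction, and 749 genes were called. Clusters were called microglia in 7820 to 10982 cells per mouse, and 75 to 142 cells per mouse formed a pair of clusters led by or high in *Mrc1*, the mannose receptor of border macrophages. Of these, 1 cluster was led by *Mrc1*, *F13a1* and *Lyve1* and the other by *H2-Eb1*, *H2-Aa* and *Ccr2*. The latter had 4 of the MHC class II list and 3 of the border macrophage list among its top 10 genes, so both are named here only as Mrc1-positive cells. *P2ry12* and *Tmem119*, which mark microglia, measured 403 to 583 and 329 to 434 CPM (counts per 1000000 UMIs of the same cells) in the microglia. *Cx3cr1* measured 1443 and 1542 CPM in PRMT1FL against 847 and 837 CPM in PRMT1Cx3cr1-KO microglia. The name PRMT1FL gives no Cre, so the Cre at the *Cx3cr1* locus and the loss of *Prmt1* came together. Their parts in any difference between the genotypes cannot be told apart here. *Prmt1* measured 91.1 and 83.9 CPM against 70.3 and 70.6 CPM (log2 difference −0.39 ± 0.07 SE, edgeR quasi-likelihood adjusted p = 0.0777), in 3′ tags that may lie outside the deleted part. At the protein level, the study reported the loss of PRMT1 by immunoblot in microglia isolated from PRMT1Cx3cr1-KO mice.

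Each mouse's UMIs were summed over its microglia and the genotypes were set against each other in edgeR (quasi-likelihood), with p-values adjusted over all 13867 genes tested. Of the 8 members open to a test, all passed the filter on low counts and 1 was called at an adjusted p under 0.05, against 0.469% of all genes tested (65 genes). *C5ar1* was higher and the others were not called. The median log2 difference of the 8 was −0.21, and that of all genes was 0.00 to 2 decimals (−0.004). In 4 of the 8 (*C1qc*, *C4b*, *C3ar1* and *C5ar1*) the genotypes did not overlap in CPM, as was so for 56% of all genes tested. With 2 mice against 2 an exact permutation test of a single gene cannot go below p = 0.333, so calls rest on the fit across all genes. The labels give the samples as 1 and 2 of each genotype, and the p-values cover the spread between these mice only.

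**Figure D1:**
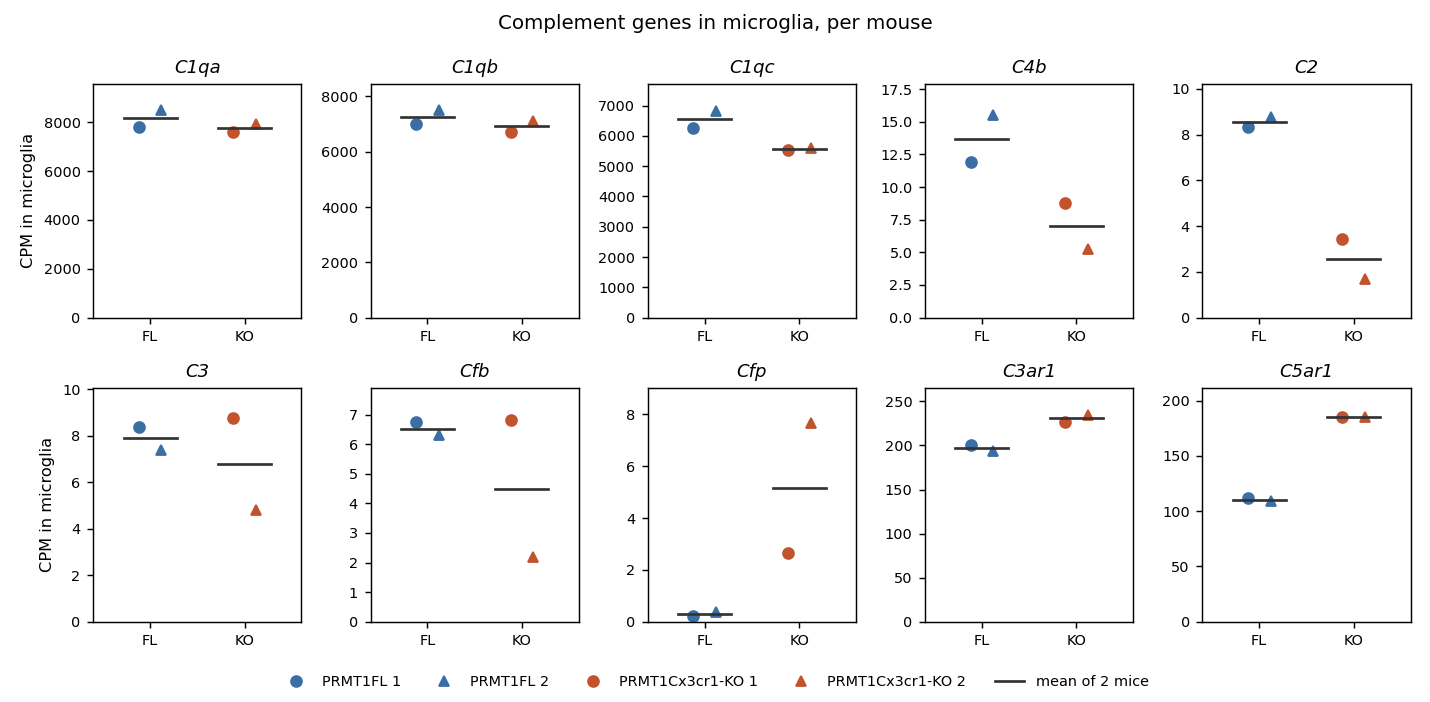
CPM of each complement gene in microglia (y axis from 0, 1 scale per gene) for the 2 PRMT1FL (FL) and the 2 PRMT1Cx3cr1-KO (KO) mice, with points for mice and bars for the mean of 2 mice. *C5ar1* sits at 109 and 112 against 185 and 185 CPM, while *C3* and *Cfb* of KO 1 lie just above both PRMT1FL mice.

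The C1q chains were the most abundant of the 10 and made up 1.99% to 2.29% of all microglial UMIs. They held 97.8% to 98.5% of the UMIs of the 10 genes, counted per molecule at the 3′ end and not scaled by length. *C1qa*, which encodes the A chain, measured 7829 and 8515 CPM in PRMT1FL against 7612 and 7942 CPM in PRMT1Cx3cr1-KO microglia. *C1qb*, for the B chain, measured 6995 and 7518 against 6716 and 7121 CPM. The genotypes overlapped for both, with log2 differences of −0.15 ± 0.10 and −0.14 ± 0.10 (SE, n = 2 mice per genotype, edgeR adjusted p = 0.469 and 0.463).
*C1qc*, for the C chain, measured 6252 and 6834 CPM in PRMT1FL against 5540 and 5611 CPM in PRMT1Cx3cr1-KO microglia. Both PRMT1Cx3cr1-KO mice were below both PRMT1FL mice. The log2 difference of −0.30 ± 0.10 did not pass the threshold with edgeR (adjusted p = 0.176). It passed with DESeq2 (adjusted p = 0.0124) and without the filter on low counts (edgeR adjusted p = 0.0423). DESeq2 called 706 of 13867 genes, and the fit without the filter called 1608 of 20189. As a share of the UMIs of the C1q chains within a library, *C1qc* held 29.7% and 29.9% in PRMT1FL against 27.9% and 27.1% in PRMT1Cx3cr1-KO microglia. The share of *C1qa* was 37.1% and 37.2% against 38.3% and 38.4%, and that of *C1qb* 33.2% and 32.9% against 33.8% and 34.4%. Shares of 1 total cannot move independently.

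*C4b*, whose product is cleaved by the activated C1 complex, measured 11.9 and 15.5 CPM in PRMT1FL against 8.75 and 5.29 CPM in PRMT1Cx3cr1-KO microglia (1052, 1132, 714 and 498 UMIs). The genotypes did not overlap, and the log2 difference of −1.04 ± 0.25 was not called with edgeR (adjusted p = 0.115). It was called without the filter on low counts (edgeR adjusted p = 1.22e-07), where 1608 of 20189 genes were called. With 1 mouse left out the difference ran from −1.47 to −0.69.
*C2*, which supplies the protease of the classical C3-cleaving enzyme, was among the members chosen for its direction. It measured 8.32 and 8.78 CPM in PRMT1FL against 3.44 and 1.68 CPM in PRMT1Cx3cr1-KO microglia, from 734, 641, 281 and 158 UMIs. The fitted log2 difference was −1.81 ± 0.31, or 3.52-fold lower, and ran from −2.44 to −1.36 with 1 mouse left out.
The summed CPM of the MHC class II list (*Cd74*, *H2-Aa*, *H2-Ab1*, *H2-Eb1* and *Itgax*) moved with *C2* and *C4b*, at 1167 and 1480 in PRMT1FL against 466 and 187 in PRMT1Cx3cr1-KO microglia. Its part in these values was not tested.

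*C3*, the central protein of the cascade, measured 8.37 and 7.39 CPM in PRMT1FL against 8.78 and 4.82 CPM in PRMT1Cx3cr1-KO microglia. *Cfb*, the protease component of the alternative pathway, measured 6.76 and 6.30 against 6.82 and 2.18 CPM. In both genes PRMT1Cx3cr1-KO 1 lay above both PRMT1FL mice and PRMT1Cx3cr1-KO 2 below them.
The log2 differences were −0.28 ± 0.28 for *C3* (edgeR adjusted p = 0.610) and −0.61 ± 0.48 for *Cfb* (0.521). Without PRMT1Cx3cr1-KO 2 they were 0.11 and 0.0155, and without PRMT1Cx3cr1-KO 1 they were −0.80 and −1.68. The summed interferon list (7 genes, such as *Ifit1* and *Isg15*) was also lowest in PRMT1Cx3cr1-KO 2, at 212 CPM against 320, 324 and 396 CPM in the other mice, and its part was not tested.

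*Cfp*, the only positive regulator among the members and chosen for its rise, was barely detected in PRMT1FL microglia. It had 19 and 28 UMIs there (0.215 and 0.383 CPM) and 217 and 723 UMIs in PRMT1Cx3cr1-KO microglia (2.66 and 7.68 CPM). PRMT1Cx3cr1-KO 2 was higher than PRMT1Cx3cr1-KO 1, and both were above both PRMT1FL mice.
The fitted log2 difference was 4.05 ± 0.59, or 16.6-fold higher, and ran from 3.12 to 4.61 with 1 mouse left out. Over all kept cells it was 2.47, as the PRMT1FL mice had most of their *Cfp* UMIs outside microglia: microglia held 24.7% and 35.4% of them, against 89.7% and 94.9% in PRMT1Cx3cr1-KO mice. The border macrophage list summed to 21.7 and 22.9 CPM in PRMT1FL against 38.9 and 104 CPM in PRMT1Cx3cr1-KO microglia. Of this *Pf4* made 16.7, 17.1, 32.3 and 92.9 CPM. *Mrc1* was also higher in both PRMT1Cx3cr1-KO mice, at 2.27 and 4.63 CPM against 1.72 CPM or less in PRMT1FL. The other genes of the list overlapped between genotypes. Of them *F13a1*, *Cbr2*, *Mgl2* and *Ccr2* were highest in PRMT1Cx3cr1-KO 2, as *Cfp* was, and *Cd163* and *Lyve1* were not. *Lyve1* stayed at 0.110 CPM or less in every mouse, too low to tell the mice apart. With all cells that had a *Mrc1* UMI left out, the *Cfp* difference was 4.11. The neutrophil list summed to 5.92 and 169 CPM in PRMT1FL against 0.882 and 97.4 CPM in PRMT1Cx3cr1-KO microglia and so did not follow genotype. As *Cfp* lies on the X chromosome, sex was checked: *Xist* measured 0.227 to 0.342 CPM and *Ddx3y* 41.8 to 45.0 CPM across the 4 mice.

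*C5ar1*, the receptor for C5a, measured 112 and 109 CPM in PRMT1FL against 185 and 185 CPM in PRMT1Cx3cr1-KO microglia, so the gap between genotypes was far wider than that between mice. It rose 1.59-fold (log2 difference 0.67 ± 0.06 SE, n = 2 mice per genotype, edgeR adjusted p = 0.0218). It kept the call in 14 of 16 other settings, and lost it without PRMT1FL 1 (0.425) or PRMT1FL 2 (0.464) while the difference stayed between 0.65 and 0.70 with any mouse left out.
*C3ar1*, the receptor for C3a, measured 201 and 194 against 227 and 235 CPM. The genotypes did not overlap, but the log2 difference of 0.15 ± 0.06 was not called (edgeR adjusted p = 0.237). Per UMI of *C3ar1* there were 0.556 and 0.562 UMIs of *C5ar1* in PRMT1FL against 0.814 and 0.787 in PRMT1Cx3cr1-KO microglia.

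The further complement list held 50 symbols, of which 49 were in the annotation and 22 passed the filter in microglia. None was called with edgeR, 11 had an unadjusted p under 0.05 (3 higher and 8 lower) and DESeq2 called 3. Of all 13867 genes tested, 2726 had an unadjusted p under 0.05 with edgeR and DESeq2 called 706. The median log2 difference of the 22 was −0.09. Of those with the most UMIs, *Itgam* and *Itgb2* form complement receptor CR3 and *C1qbp* encodes a C1q-binding protein. Their log2 differences were −0.18 ± 0.07 for *Itgam* (edgeR adjusted p = 0.252), −0.22 ± 0.07 for *Itgb2* (0.176) and −0.09 ± 0.06 for *C1qbp* (0.469). *Itgam* measured 539 and 517 CPM in PRMT1FL against 500 and 483 CPM in PRMT1Cx3cr1-KO microglia.

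The genotypes were next compared within 7 microglial states that had at least 50 cells in every mouse. Of these, homeostatic-like cells were led by *Il7r* and *P2ry12*, chemokine-high-like cells by *Il12b*, *Il1b* and *Tnf*, interferon-like cells by *Rsad2* and *Ifit3*, and mitotic-like cells by *Mki67* and *Top2a*. The other 3 were left without a type and are called by their first genes, *Gpnmb*, *Hspa1b* and *Ube2c*. The states were built from these same cells, so differences in level between states are a description. Homeostatic-like cells had a median of 2693 UMIs against 12949 in mitotic-like cells.

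**Figure D2:**
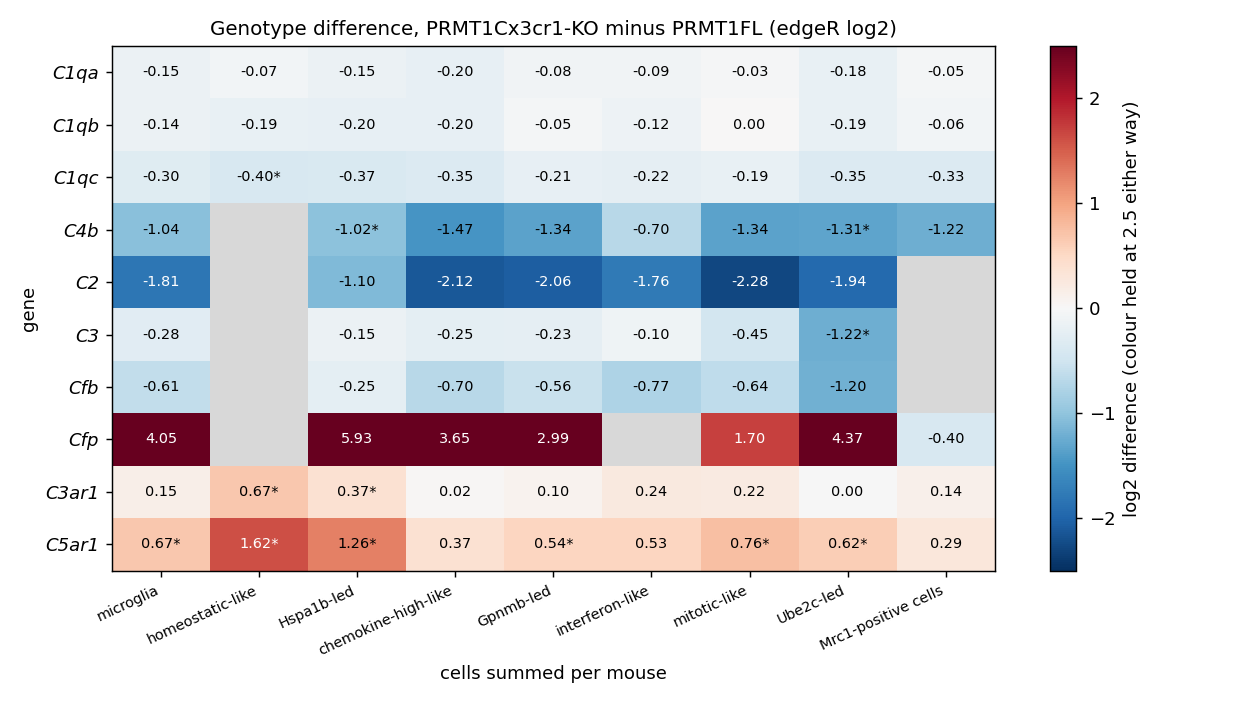
edgeR log2 differences, PRMT1Cx3cr1-KO minus PRMT1FL, for each gene (rows) in all microglia, 7 states and Mrc1-positive cells (columns). Stars mark adjusted p under 0.05, given for all but *C2* and *Cfp*, and grey marks pairs that did not pass the filter or had 3 UMIs or fewer in 1 genotype. *C5ar1* ran from 0.37 to 1.62 over the 7 states and *C4b* from −1.47 to −0.70 over 6.

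*C5ar1* was higher in PRMT1Cx3cr1-KO cells of all 7 states, which share the same mice, and did not overlap between genotypes in any of them. Over all microglia 56% of all genes did not overlap, and within states no such share was counted. *C5ar1* was called in 5 states, against 7.15% of genes in homeostatic-like, 11.1% in Hspa1b-led, 0.374% in mitotic-like, 3.57% in Ube2c-led and 0.948% in Gpnmb-led cells. In homeostatic-like cells it measured 78.6 and 116 CPM in PRMT1FL against 296 and 323 CPM in PRMT1Cx3cr1-KO mice, 3.07-fold higher (log2 difference 1.62 ± 0.15, edgeR adjusted p = 1.63e-06). In Hspa1b-led cells it measured 105 and 109 against 262 and 270 CPM, 2.39-fold higher (1.26 ± 0.08, edgeR adjusted p = 4.54e-06).
The rise was 1.69-fold in mitotic-like cells (edgeR adjusted p = 0.0174), 1.54-fold in Ube2c-led cells (6.45e-04) and 1.45-fold in Gpnmb-led cells (0.0254). The mitotic-like call was lost without PRMT1FL 2, and the Gpnmb-led call without PRMT1FL 1 or PRMT1FL 2. In chemokine-high-like cells *C5ar1* measured 171 and 160 against 220 and 238 CPM, and in interferon-like cells 109 and 57.3 against 118 and 135 CPM. These differences of 0.37 ± 0.07 and 0.53 ± 0.17 were not called (edgeR adjusted p = 0.0530 and 0.101), where 1.04% and 1.41% of genes were. The call in chemokine-high-like cells was made with DESeq2 (adjusted p = 0.00732), with the replicate number as a block (edgeR, 0.00295) and with another clustering seed (edgeR, 0.0490). These settings called 269 of 11970, 754 of 11970 and 158 of 11942 genes. With 1 mouse left out the difference there ran from 0.34 to 0.41. In interferon-like cells the call was made with the block (edgeR adjusted p = 0.0155), where 157 of 8838 genes were called. The difference in interferon-like cells was 1.11 without PRMT1FL 1 and 0.17 without PRMT1FL 2.
In PRMT1FL mice *C5ar1* was highest in chemokine-high-like cells, above every other state in both mice. Its values in interferon-like cells (109 and 57.3 CPM) spanned those of Ube2c-led (68.9 and 70.9), mitotic-like (89.5 and 76.6) and Gpnmb-led cells (92.2 and 95.2 CPM), so these neighbours did not differ from it beyond the spread between mice. In PRMT1Cx3cr1-KO mice it was highest in homeostatic-like cells.

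**Figure D3:**
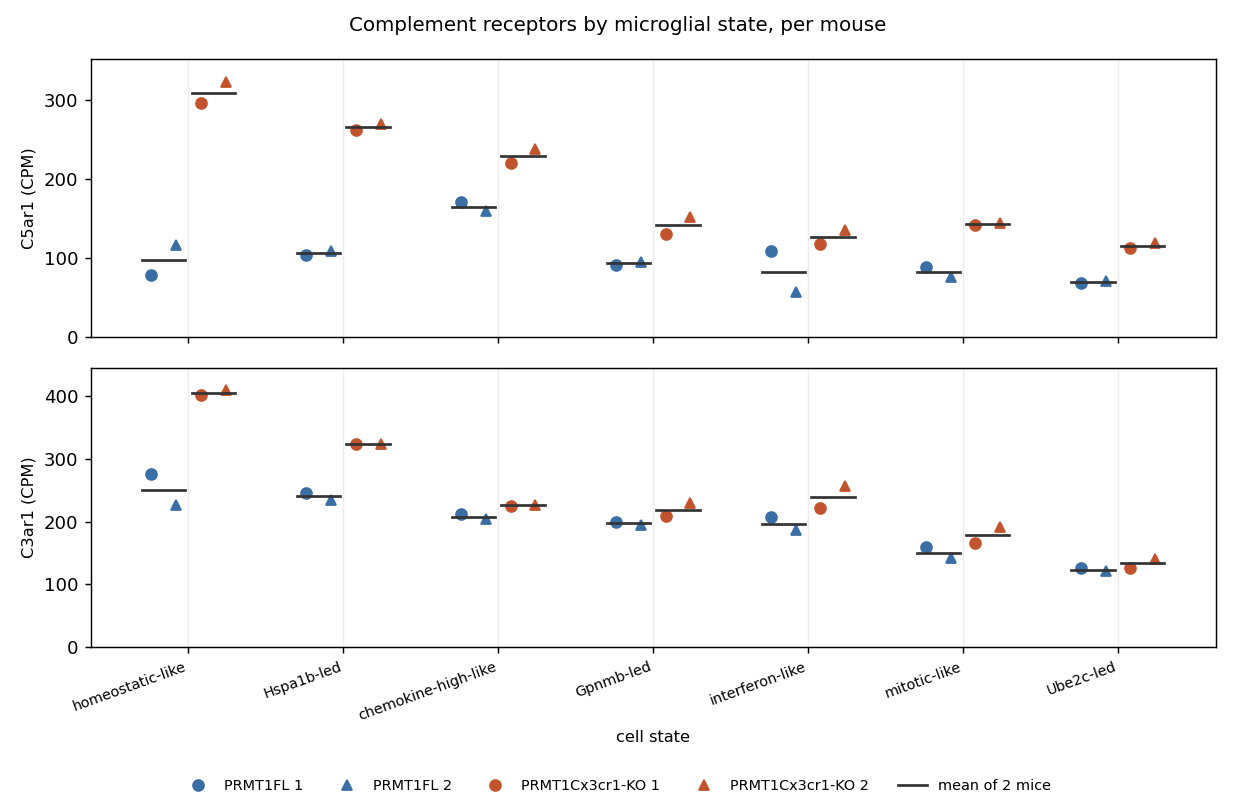
CPM of *C5ar1* (top) and *C3ar1* (bottom) in 7 microglial states (x axis) of the 4 mice, with bars for the mean of 2 mice per genotype and y axes from 0. The genotypes are farthest apart in homeostatic-like and Hspa1b-led cells, where *C5ar1* sits at 262 to 323 CPM in PRMT1Cx3cr1-KO mice.

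Whether the genotype effect differed between states was tested with limma voom on state by mouse sums, with the mouse as a random block and each state set against the mean of the other 6. For *C5ar1* the effect was larger in homeostatic-like cells (difference of log2 effects 0.99 ± 0.19 SE, limma adjusted p = 0.00477) and in Hspa1b-led cells (0.51 ± 0.11, 0.0177), and smaller in chemokine-high-like cells (−0.53 ± 0.10, 0.0320). For *C3ar1* it was larger in homeostatic-like cells (0.56 ± 0.09, limma adjusted p = 5.89e-04). Of all genes 2.06% were called in this test for homeostatic-like, 0.968% for Hspa1b-led and 0.12% for chemokine-high-like cells. None of the 8 members was called for interferon-like, Gpnmb-led, mitotic-like or Ube2c-led cells, where 0.008%, 0.176%, 0.584% and 0% of genes were. Each of the 4 calls was lost with at least 2 of the 4 mice left out in turn, while the sign of each difference stayed the same. Each state also enters the mean set against the others, so the differences of 1 gene are not independent.

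*C3ar1* measured 276 and 226 CPM in homeostatic-like cells of PRMT1FL mice and 401 and 409 CPM in those of PRMT1Cx3cr1-KO mice, a rise of 1.59-fold (log2 difference 0.67 ± 0.12, edgeR adjusted p = 0.00127). In Hspa1b-led cells it measured 246 and 234 against 324 and 323 CPM, a rise of 1.30-fold (0.37 ± 0.08, edgeR adjusted p = 0.0144), a call that was lost without either PRMT1FL mouse and with another clustering seed. It was not called in the other 5 states, where the differences ran from 0.00 (−0.004 in Ube2c-led cells) to 0.24. Its level was lowest in Ube2c-led cells, at 121 to 140 CPM over the 4 mice. It was highest in homeostatic-like cells in PRMT1Cx3cr1-KO mice, while in PRMT1FL mice homeostatic-like and Hspa1b-led cells overlapped.

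The C1q chains varied little between states, as the highest mean over the 4 mice was 1.41 times the lowest for *C1qa*, 1.38 times for *C1qb* and 1.20 times for *C1qc*. Over the 4 mice mitotic-like cells had the lowest mean of each chain and homeostatic-like cells the highest. Within PRMT1Cx3cr1-KO mice, however, the mean of *C1qc* in homeostatic-like cells (5574 CPM) was below that in Gpnmb-led (5958), interferon-like (5666) and Ube2c-led cells (5641 CPM). Ube2c-led cells had 3 of the mitotic list among their top 10 genes, as mitotic-like cells did. Their means of *C1qa* (8248 CPM) and *C1qb* (7723 CPM) over the 4 mice were nonetheless below those of homeostatic-like cells alone. The genotypes did not overlap for *C1qc* in any of the 7 states, which share the same mice. Over all microglia this was so for 56% of all genes, and within states no share was counted. *C1qc* was lower in PRMT1Cx3cr1-KO cells of all 7, by log2 differences of −0.40 to −0.19. With edgeR it was called in homeostatic-like cells (6861 and 7534 against 5747 and 5402 CPM, edgeR adjusted p = 0.0433), and that call was lost without PRMT1FL 2, PRMT1Cx3cr1-KO 1 or PRMT1Cx3cr1-KO 2. DESeq2 also called *C1qc* in chemokine-high-like (adjusted p = 0.0119), Hspa1b-led (0.00596) and Ube2c-led cells (0.0114). It called 269 of 11970, 627 of 11885 and 168 of 10215 genes there. In Ube2c-led cells *C1qc* was called with edgeR too with the replicate number as a block (adjusted p = 0.0468), where 606 of 10215 genes were. With 1 mouse left out the difference in Ube2c-led cells ran from −0.40 to −0.30. *C1qa* and *C1qb* were called in no state with edgeR.

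The genotypes did not overlap for *C4b* in the 6 states where it passed the filter, though these states share the same mice. Over all microglia 56% of all genes did not overlap, and within states no share was counted. *C4b* was lower in PRMT1Cx3cr1-KO cells of all 6. It fell in Hspa1b-led cells, from 11.2 and 15.01 to 8.496 and 4.89 CPM (log2 difference −1.02 ± 0.24, edgeR adjusted p = 0.0187). It also fell in Ube2c-led cells, from 6.00 and 6.92 to 2.89 and 2.75 CPM (−1.31 ± 0.25, edgeR adjusted p = 0.0102). Both calls were lost with either PRMT1FL mouse left out. In Ube2c-led cells DESeq2 gave *C4b* no adjusted p, at a log2 difference of −1.31 ± 0.42. In homeostatic-like cells *C4b* had 6 and 11 UMIs for PRMT1FL against 1 and 8 in PRMT1Cx3cr1-KO mice and did not pass the filter.
*C2* was lower in PRMT1Cx3cr1-KO cells of the 6 states where it passed, with log2 differences of −2.28 in mitotic-like to −1.10 in Hspa1b-led cells. In Gpnmb-led cells, which held 46.2% and 47.6% of its UMIs in PRMT1FL mice, it measured 9.63 and 10.4 against 3.98 and 1.34 CPM. In interferon-like cells it measured 10.4 and 17.7 against 5.84 and 0.796 CPM.
Ms4a7-like phagocytes were counted with the microglia, but some of their markers went against that class. Their median log2 ratio to the other cells was −1.96 for the homeostatic list, against −0.56 to 1.46 in the 7 states. For the border macrophage list it was 1.32, against −0.71 to −0.31. The microglia list did not set them apart. None of it was among their top 10 genes and its median was −0.56, and the same held for Ube2c-led cells. The cluster, led by *Ms4a7* and *Clec12a* with 19 and 9 cells in PRMT1FL against 60 and 334 cells in PRMT1Cx3cr1-KO mice, had the most *C2* and *C4b* per UMI among the cells counted as microglia. *C2* measured 56.7 and 175 CPM there in PRMT1FL (4 and 8 UMIs) against 42.4 and 21.0 CPM in PRMT1Cx3cr1-KO mice (13 and 36 UMIs). *C4b* measured 28.4 and 415 CPM (2 and 19 UMIs) against 280 and 84.0 CPM (86 and 144 UMIs). This cluster held 0.534% and 1.20% of *C2* UMIs in PRMT1FL mice against 4.50% and 21.7% in PRMT1Cx3cr1-KO mice. With it left out, the microglial log2 difference was −1.95 for *C2* and −1.30 for *C4b*.

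**Figure D4:**
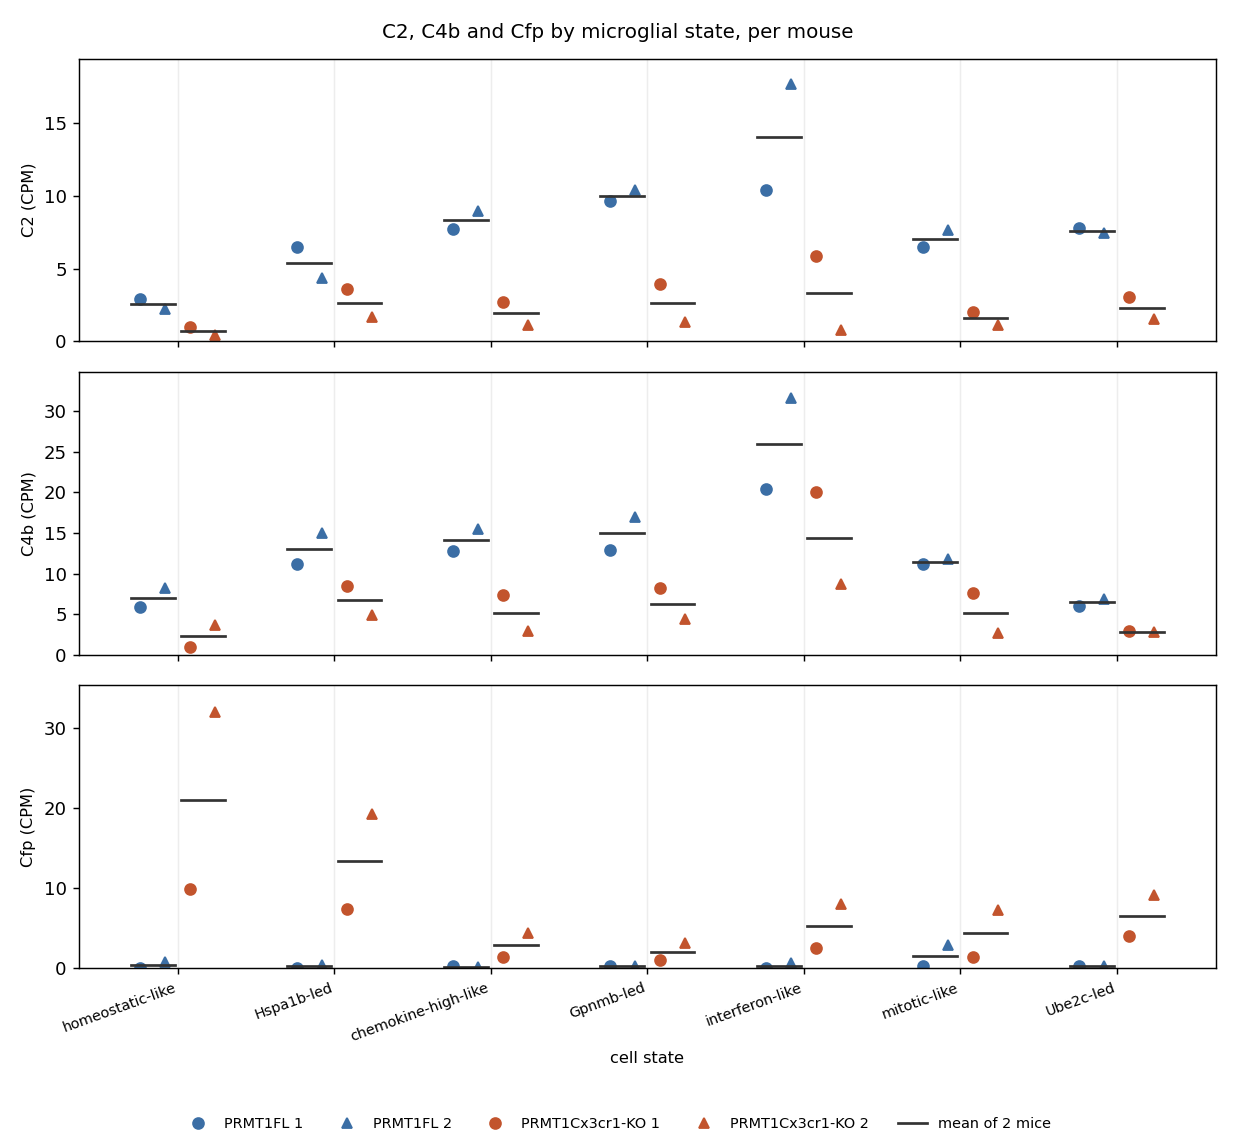
CPM of *C2*, *C4b* and *Cfp* (rows, y axes from 0) in 7 microglial states (x axis) of the 4 mice, with bars for the mean of 2 mice per genotype. *C2* and *C4b* are highest in interferon-like cells of PRMT1FL 2, at 17.7 and 31.7 CPM, and *Cfp* in homeostatic-like cells of PRMT1Cx3cr1-KO 2, at 32.1 CPM.

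*Cfp* was highest in homeostatic-like and Hspa1b-led cells of PRMT1Cx3cr1-KO mice. In homeostatic-like cells it had 0 and 1 UMIs in PRMT1FL mice, where a count of 0 allows up to 2.95 CPM, and 10 and 69 UMIs in PRMT1Cx3cr1-KO mice (9.90 and 32.1 CPM). In Hspa1b-led cells it had 0 and 5 UMIs in PRMT1FL mice, the 0 allowing up to 0.231 CPM, and 100 and 276 UMIs in PRMT1Cx3cr1-KO mice (7.39 and 19.3 CPM). Hspa1b-led cells held 41.3% and 36.2% of all *Cfp* UMIs of the PRMT1Cx3cr1-KO mice.
In Gpnmb-led cells it measured 0.250 and 0.263 against 0.983 and 3.16 CPM and in Ube2c-led cells 0.310 and 0.271 against 3.99 and 9.12 CPM. The genotypes overlapped in mitotic-like cells, at 0.259 and 2.86 against 1.43 and 7.23 CPM. Limits from counts of 0 cover counting error only.
The summed list of stress genes (*Gdf15*, *Il7r*, *Pdlim4*, *Trib3* and *Chac1*) was likewise higher in PRMT1Cx3cr1-KO microglia, at 137 and 177 CPM against 47.3 and 55.5 CPM. *Gdf15*, *Il7r* and *Pdlim4* were higher in both PRMT1Cx3cr1-KO mice, and the other genes of the list were not. *Trib3* measured 4.69 and 3.94 CPM in PRMT1FL against 4.90 and 3.39 CPM, and *Chac1* 1.91 and 1.14 against 1.36 and 1.26 CPM. The part of the list in the *Cfp* values was not tested.

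*C3* and *Cfb* were highest in interferon-like cells. *C3* measured 13.1, 13.4, 13.3 and 11.1 CPM there in PRMT1FL 1, PRMT1FL 2, PRMT1Cx3cr1-KO 1 and PRMT1Cx3cr1-KO 2, and *Cfb* measured 27.7, 31.7, 20.8 and 11.9 CPM. *Cfb* did not overlap between genotypes in these cells, with a log2 difference of −0.77 ± 0.25 that was not called (edgeR adjusted p = 0.144). *C3* was called in Ube2c-led cells, where it fell from 7.66 and 4.88 to 3.58 and 2.58 CPM (−1.22 ± 0.29, edgeR adjusted p = 0.0346). That call was lost without PRMT1FL 1 or PRMT1Cx3cr1-KO 2. DESeq2 gave *C3* no adjusted p there, at a log2 difference of −1.17 ± 0.44.
Over the 7 states, 5 of the 10 members (*C2*, *C3*, *C4b*, *Cfp* and *Cfb*) had a highest mean at least 3 times the lowest. The share of all genes for which this holds was not counted. These were the members with the fewest UMIs, where such ratios are rough. In homeostatic-like cells *C2*, *C3*, *C4b* and *Cfb* had 8, 26, 26 and 14 UMIs over the 4 mice. The means pool both genotypes, and *Cfp* had only 0 and 1 UMIs in homeostatic-like cells of PRMT1FL mice. All 10 kept the same highest state when each cell was thinned to 1000 UMIs.

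The genes most like *C2*, *Cfp*, *C3* and *C4b* were sought by the Pearson correlation of log2(CPM + 1) over the 28 sums of 7 states and 4 mice, among 9077 genes. These sums share mice and states and are not independent. *C2* was most like *B2m* (r = 0.864), *H2-Ab1* (0.851), *Hpse* (0.833), *H2-K1* (0.824) and *H2-Aa* (0.824). *C4b* was most like *H2-K1* (r = 0.901), *Lgals3bp* (0.889), *H2-Q7* (0.885), *H2-D1* (0.814) and *C2* (0.804). As *C2* and *Cfp* were chosen for their difference between genotypes and the sums span both, genes that differ alike score high with them by that choice.
*Cfp* was most like *Gclm* (r = 0.946), *Treml4* (0.936), *Taldo1* (0.922), *Mgst1* (0.911) and *Pgd* (0.879), among them *Gclm* of glutathione synthesis and *Taldo1* and *Pgd* of the pentose phosphate pathway. *C3* had looser neighbours, with *Mfsd12* at 0.803, *Cybb* at 0.769, *Hpcal1* at 0.761, *Naa25* at 0.750 and *Metrnl* at 0.747.

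Mrc1-positive cells numbered 142 and 93 in PRMT1FL against 75 and 84 in PRMT1Cx3cr1-KO mice, with 473118, 418844, 247127 and 378083 UMIs. Their levels differed from those of microglia most for *C4b* and *Cfp*. *C4b* measured 114, 86.0, 36.4 and 47.6 CPM there in the 4 mice, from 54, 36, 9 and 18 UMIs. This was 4.16 to 9.57 times its level in the microglia of the same mouse. *Cfp* measured 44.4 and 50.1 CPM in PRMT1FL (21 and 21 UMIs) against 48.6 and 26.4 CPM in PRMT1Cx3cr1-KO mice (12 and 10 UMIs). This was 206 and 131 times the microglial level in PRMT1FL against 18.3 and 3.44 times in PRMT1Cx3cr1-KO mice. With so few UMIs these ratios are rough.
*C3ar1* was 1.59 to 1.81 times and *C5ar1* 1.71 to 2.61 times as high as in microglia. The C1q chains were lower than in microglia in every mouse, and *C1qc*, at 4798, 5093, 3747 and 4081 CPM, was 1.30 to 1.48 times lower. *C2* had 6, 5, 3 and 3 UMIs, *C3* had 3, 1, 2 and 3, and *Cfb* had 4, 8, 0 and 2, too few for a comparison, and the 0 allows up to 12.1 CPM.
Within the pair, *C4b* and *Cfp* were higher per UMI in the Lyve1-led cluster in every mouse, though in PRMT1Cx3cr1-KO 1 it held 5 *Cfp* UMIs and the H2-Eb1-led cluster 7. *C4b* measured 211, 177, 92.2 and 152 CPM in Lyve1-led and 40.8, 30.7, 11.7 and 7.33 CPM in H2-Eb1-led cells, and *Cfp* 103, 94.7, 65.9 and 76.1 against 0 (which allows up to 11.1 CPM), 23.0, 40.9 and 7.33 CPM.

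**Figure D5:**
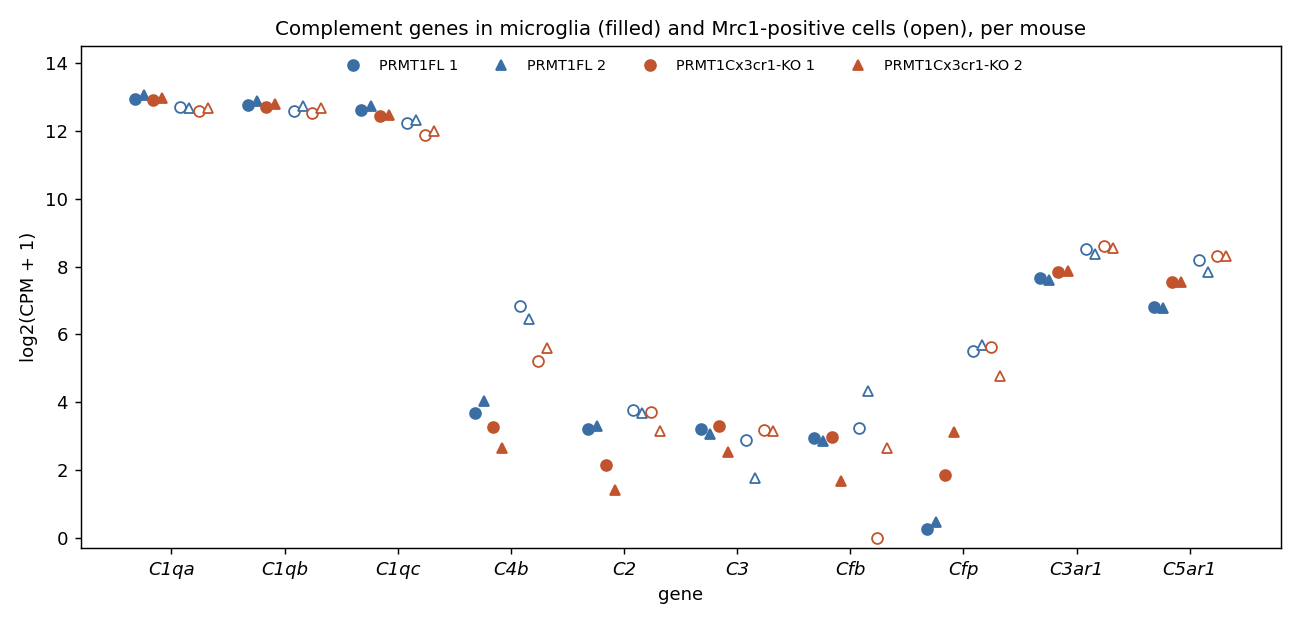
log2(CPM + 1) of the 10 genes (x axis) in microglia (filled) and Mrc1-positive cells (open), 1 point per mouse. *Cfp* lies at 26.4 to 50.1 CPM in Mrc1-positive cells of all 4 mice and at 0.215 to 7.68 CPM in microglia, where the genotypes part.

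The genotypes were compared in Mrc1-positive cells in the same way, and 6 of the 8 members passed the filter. None was called, where 0.5% of 4796 genes were (24 genes). *C1qc* and *C4b* had an unadjusted p under 0.05 with edgeR, as did 504 of the 4796 genes, and DESeq2 called no member and 19 genes. *C4b* had a log2 difference of −1.22 ± 0.31 without overlap (edgeR adjusted p = 0.133). It was called when the cells were instead taken by at least 1 (0.0116) or 2 (0.00395) UMIs of *Mrc1*, or with a mixed cluster of Mrc1-positive and microglial profile added (0.00177), and without PRMT1FL 2 (0.0108). In that mixed cluster 21.4% to 51.2% of cells were marked as doublets. It held 43 and 56 cells in PRMT1FL against 45 and 92 in PRMT1Cx3cr1-KO mice. Cells with at least 1 UMI of *Mrc1* numbered 225 and 166 against 236 and 414. With at least 2 UMIs they numbered 141 and 108 against 109 and 180. The clusters held 142 and 93 against 75 and 84 cells. These sets thus changed unequally between genotypes. Microglia had less *C4b* per UMI, and the part of such added cells in the calls was not tested.
*C1qc* had a log2 difference of −0.33 ± 0.11 without overlap (edgeR adjusted p = 0.292). *C5ar1* measured 292 and 227 against 316 and 317 CPM, a log2 difference of 0.29 ± 0.19 (edgeR adjusted p = 0.676), and *C3ar1* 364 and 329 against 388 and 373 CPM (0.14 ± 0.17, 0.867). For *Cfp* the fitted log2 difference was −0.40 ± 0.38, and it was −0.81 to 0.0212 with 1 mouse left out. The Lyve1-led cluster held 56 and 33 cells in PRMT1FL against 19 and 24 in PRMT1Cx3cr1-KO mice. The H2-Eb1-led cluster held 86 and 60 against 56 and 60. Over the 4 mice *C1qc* averaged 5661 CPM in Lyve1-led and 3761 CPM in H2-Eb1-led cells, and *C5ar1* 417 and 216 CPM. The part of this make-up in the differences over the pair was not tested.
The test of the difference between Mrc1-positive cells and microglia in the genotype effect called none of the 8 members, and 0% of 13075 genes. For *C5ar1* this difference was −0.37 ± 0.22 (limma adjusted p = 0.612), so a smaller effect in Mrc1-positive cells was not shown. In neutrophil-like cells of the PRMT1FL mice, which should lack C1q, *C1qa* measured 1772 and 911 CPM. Whether these UMIs came from free RNA, from doublets or from another source was not tested.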

How the data were processed

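Single-cell libraries of CD45+ CD11b+ brain cells were analysed from 2 PRMT1FL and 2 PRMT1Cx3cr1-KO mice, 1 library each, on the CPZ diet. The authors deposited raw UMI counts per gene and barcode for each library, made with Cell Ranger 3.1.0 on mm10 per the labels. The submitters' processing notes also name Seurat 3.2.0 and Scanpy 1.5.2, which are not needed for these counts. The aligner settings were not given in the sources used here. Following the study's limits, barcodes needed 200 to 6000 detected genes and no more than 10% of UMIs from mitochondrial genes. UMIs were scaled to 10000 per cell, and 2000 variable genes, 20 components and 15 neighbours were used for Leiden clustering at resolution 0.4 (scanpy 1.11.5). The cluster highest in *Mrc1* was divided again at the same resolution. States were rebuilt here and named from marker lists, so they may differ from the study's clusters, and neutrophil-like and monocyte-like cells, a mixed cluster and other cells outside these classes were kept apart. Doublets were marked by comparison with simulated doublets and left in, except in an alternative.

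UMIs were summed per mouse and class, divided by the summed total for CPM, and tested with edgeR 4.0.16 (TMM, filterByExpr, quasi-likelihood, R 4.3.3), with Benjamini-Hochberg adjustment over all genes tested and a threshold of 0.05. Differences between states were tested with limma 3.58.1. DESeq2 1.42.0 was an alternative, as were other normalization, filter, cell sets, seeds, thinning to 1000 UMIs, a replicate block and leaving out each mouse. Without counts, a floor of 3 UMIs is given. The tests were checked on simulated data. The 10 members and all lists were chosen with earlier results of these data known. All 10 members, the further complement genes called or among the 4 with the most UMIs (1 of which is not reported here), and the 5 genes most like each of *C2*, *Cfp*, *C3* and *C4b* were named by rule, and marker and sex-check genes serve as checks. Gene positions come from GENCODE M21 (GRCm38), promoter windows from RefSeq.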

Additional observations from a re-analysis of the deposited data

Results flagged for a closer look

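The effect of genotype on the complement receptors was called as different between microglial states by the limma test of the difference itself. Each state was set against the mean of the others, so the differences of 1 gene are not independent. None of these calls was kept with every mouse left out in turn, though the signs stayed the same. For *C5ar1* the log2 effect in homeostatic-like cells exceeded the mean of the other states by 0.99, and in Hspa1b-led cells by 0.51, while in chemokine-high-like cells the difference was −0.53. For *C3ar1* the log2 effect in homeostatic-like cells exceeded that mean by 0.56. Homeostatic-like cells were also the shallowest of the 7 states, at a median of 2693 UMIs, and the part of depth was not tested.

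Neutrophil-like cells, led by *S100a9* and *S100a8*, belong to no comparison, as the cluster held cells of the PRMT1FL mice alone (25 and 45 cells). In the microglia the neutrophil list summed to 5.92 and 169 CPM for PRMT1FL 1 and 2, and to 0.882 and 97.4 CPM for PRMT1Cx3cr1-KO 1 and 2. It was thus higher in the mouse numbered 2 of each genotype, and the cause was not tested. So the cluster does not show that PRMT1Cx3cr1-KO mice lacked neutrophils. The cells of the cluster are described here. These neutrophil-like cells held complement transcripts above the limit that a count of 0 allows. *C3* measured 266 and 335 CPM there (30 and 79 UMIs), against 4.82 to 8.78 CPM in microglia. *C5ar1* measured 328 and 254 CPM and *Cfp* 44.3 and 55.1 CPM.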

How the results depend on the processing

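In microglia 1 of the 8 tested members was called, and DESeq2 called 2, no filter on low counts 3, and 0 to 4 were called with 1 mouse left out. Over all genes 65 were called, 749 over all kept cells, 706 with DESeq2, 1608 without the filter, and 4 to 2475 with 1 mouse left out. With 1 mouse left out the members called were 2 to 3 in homeostatic-like, 0 to 2 in interferon-like, 0 to 4 in Gpnmb-led, 0 to 2 in mitotic-like, 0 to 4 in chemokine-high-like, 1 to 5 in Hspa1b-led, 1 to 5 in Ube2c-led and 0 to 1 in Mrc1-positive cells. Over all genes the calls then ran, in the same order of cells, 172 to 704, 63 to 192, 6 to 1288, 49 to 341, 4 to 1098, 234 to 2406, 54 to 1034 and 8 to 98, so both counts moved with the mouse left out. Another clustering seed gave 2 in Gpnmb-led and 2 in chemokine-high-like cells, where 212 of 12273 and 158 of 11942 genes were called. In chemokine-high-like cells DESeq2 gave 2 members and 269 of 11970 genes. In Mrc1-positive cells 1 member was called by at least 1 UMI of *Mrc1*, 1 by at least 2 UMIs, and 1 with the mixed cluster. The cells added in these settings differed in number between genotypes. Over all genes 123 of 9321, 97 of 8011 and 166 of 8145 were called in these settings, against 24 of 4796 in the main one. With 1 mouse left out the difference between states for *C5ar1* ran from 0.60 to 1.41 in homeostatic-like cells. It ran from −0.55 to −0.53 in chemokine-high-like and from 0.39 to 0.58 in Hspa1b-led cells. For *C3ar1* it ran from 0.47 to 0.61 in homeostatic-like cells.

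The labels share replicate numbers across genotypes but do not say what a number stands for. Deviations of same-numbered mice had r = 0.24 over 13867 genes, from 2 pairs only. With the replicate block 258 genes were called in microglia, and the members called were 1 in interferon-like, 2 in Gpnmb-led, 2 in chemokine-high-like and 5 in Ube2c-led cells, where 157 of 8838, 475 of 12549, 754 of 11970 and 606 of 10215 genes were called. For the difference of chemokine-high-like cells 2 members were called with the block, and the count over all genes there is not given here.

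With another clustering seed the log2 difference turned to −0.0207 for *C1qb* in mitotic-like cells and to 0.00060 for *C3ar1* in Ube2c-led cells. Values that changed sign with 1 mouse left out are given by their range. In microglia these were *C3* −0.80 to 0.11, *Cfb* −1.68 to 0.0155. In homeostatic-like cells these were *C1qa* −0.15 to 0.0144. In interferon-like cells these were *C3* −0.31 to 0.0152. In Gpnmb-led cells these were *C1qb* −0.12 to 0.0146, *C3* −0.75 to 0.22, *Cfb* −1.45 to 0.0961. In mitotic-like cells these were *C1qa* −0.0894 to 0.0263, *C1qb* −0.0384 to 0.0467, *C3* −0.89 to 0.0891, *Cfp* −0.0397 to 4.08, *Cfb* −1.60 to 0.21. In chemokine-high-like cells these were *C3* −0.86 to 0.12. In Hspa1b-led cells these were *C3* −0.68 to 0.25, *Cfb* −1.28 to 0.38. In Ube2c-led cells these were *C3ar1* −0.0417 to 0.0258. In Mrc1-positive cells these were *C1qb* −0.17 to 0.0227, *Cfp* −0.81 to 0.0212. The cause of these changes was not tested. Leaving out a mouse leaves 1 mouse in a genotype, which is assumed to vary like the other genotype. Homeostatic-like cells had no counterpart under another seed, and the comparison of Mrc1-positive cells with microglia could not be fitted with 1 mouse left out. Leaving out barcodes shared between libraries and adding the mixed cluster were chosen after seeing the data. Depth limits *C2*, *C3*, *C4b* and *Cfb* in homeostatic-like cells and *C2*, *C3* and *Cfb* in Mrc1-positive cells, which did not pass the filter.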
